A study of Homo sapiens with 4 samples.

Results

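DNA replication machinery is taken here as 46 human genes that encode the proteins which license origins, activate the replicative helicase and copy the DNA. They were chosen by name, but with earlier results of these data known. Shares over all genes printed beside their counts are therefore descriptions and no test of the list. All 46 were among the 28189 gene names of the deposited tables, each in a single row. The tables come from 4 RNA-seq libraries of U87, an established human glioma cell line grown in serum-containing medium. The shPTPRN3 group (2 libraries) received, by lentivirus, 1 hairpin directed at PTPRN, a gene of the receptor-type tyrosine phosphatase family whose protein sits in secretory vesicle membranes. The shNC group (2 libraries) received the empty FUGW-H1 vector in the same way, though in the design text the control is H1-RFP (WT). The design text calls the libraries of a group biological replicates but does not say that they are independent cultures, and p-values therefore reflect only how far these libraries differ, which may be technical. The comparison asks at which steps of replication transcript levels differ between cells with the hairpin and control cells.

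Replication of a eukaryotic genome is prepared in G1, when the origin recognition complex (ORC), CDC6 and CDT1 load the ring-shaped MCM2-7 complex onto origins, a process called licensing. At the start of S phase, kinases recruit CDC45 and the GINS complex to MCM2-7 and so convert it into an active helicase. Polymerase alpha-primase then lays down primers, polymerases epsilon and delta extend them, the clamp PCNA holds the polymerases on DNA after being opened by the loader RFC, and FEN1 and LIG1 join the lagging-strand fragments. Many of these genes are known targets of E2F transcription factors, whose activity is high in cycling cells and low in arrested ones. In bulk RNA, fewer cells in S phase and less of each transcript per cell cannot be told apart.

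Promoter windows of 5 members are printed here because they hold, or lack, the letters of the E2F motif and stand beside large and small differences in transcript level. The windows run from 250 bases before to 50 bases after the gene start, are from RefSeq (GRCh38.p14), and read 5′ to 3′ on the gene's strand, with motif matches in capitals. MCM7 (chr7:100101348-100101647, minus strand) and MCM2 (chr3:127598161-127598460, plus strand) encode helicase subunits, CDC6 (chr17:40287629-40287928, plus strand) a loading factor, CDC45 (chr22:19479670-19479969, plus strand) a helicase cofactor and ORC3 (chr6:87589885-87590184, plus strand) an ORC subunit.
MCM7: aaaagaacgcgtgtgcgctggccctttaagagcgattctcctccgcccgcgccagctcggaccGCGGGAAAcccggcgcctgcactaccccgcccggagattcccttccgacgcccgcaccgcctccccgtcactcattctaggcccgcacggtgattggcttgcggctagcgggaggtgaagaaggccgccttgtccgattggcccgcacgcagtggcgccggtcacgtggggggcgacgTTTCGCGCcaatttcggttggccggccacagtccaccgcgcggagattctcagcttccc
MCM2: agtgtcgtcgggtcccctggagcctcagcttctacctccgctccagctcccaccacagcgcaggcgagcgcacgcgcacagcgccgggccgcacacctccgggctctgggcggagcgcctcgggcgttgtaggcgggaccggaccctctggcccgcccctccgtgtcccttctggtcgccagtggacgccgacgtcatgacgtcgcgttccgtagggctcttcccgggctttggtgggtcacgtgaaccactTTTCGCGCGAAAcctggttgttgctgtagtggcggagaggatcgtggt
CDC6: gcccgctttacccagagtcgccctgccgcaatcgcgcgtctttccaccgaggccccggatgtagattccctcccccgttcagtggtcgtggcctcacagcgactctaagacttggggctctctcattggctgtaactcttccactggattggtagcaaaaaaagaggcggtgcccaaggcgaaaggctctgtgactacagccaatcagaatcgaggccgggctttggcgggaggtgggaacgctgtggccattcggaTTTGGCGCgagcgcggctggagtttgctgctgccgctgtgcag
CDC45: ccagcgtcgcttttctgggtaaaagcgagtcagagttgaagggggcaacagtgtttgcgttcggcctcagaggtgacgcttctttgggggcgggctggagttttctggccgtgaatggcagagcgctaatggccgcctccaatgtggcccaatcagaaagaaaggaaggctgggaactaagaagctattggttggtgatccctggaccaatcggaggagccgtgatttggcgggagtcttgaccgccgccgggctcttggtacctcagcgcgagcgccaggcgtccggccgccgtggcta
ORC3: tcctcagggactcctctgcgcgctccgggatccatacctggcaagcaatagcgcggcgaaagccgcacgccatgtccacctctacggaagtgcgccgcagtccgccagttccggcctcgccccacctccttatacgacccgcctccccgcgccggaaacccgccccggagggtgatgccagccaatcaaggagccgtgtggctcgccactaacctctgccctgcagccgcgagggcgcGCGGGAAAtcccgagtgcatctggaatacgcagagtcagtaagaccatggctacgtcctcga
The motif letters were TTTCCCGC, TTTCGCGC, TTTGCCGC and TTTGGCGC, searched on both strands and with overlapping matches counted, so that MCM2, with overlapping matches on both strands, has 2. Of the 46 members, 39 had a window in the table, and MCM4, MCM5, GINS4, POLD3, DSCC1, RPA2 and RPA3 had none. At least 1 match was present in 17 of the 39 (43.6%), against 5.76% of the 8963 windows of genes tested here and 3.32% of all 35116 windows. The CCAAT box, searched as CCAAT on both strands, was present in 21 of the 39 (53.8%), against 37.0% of the windows of genes tested and 34.6% of all windows. A match describes the letters of the window and is no measure of binding, and the lack of one says only that these letters are not there.

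Values below are FPKM, fragments normalised for transcript length and library depth, scaled between libraries by a median ratio and called scaled FPKM. PTPRN had 4.96 and 3.62 scaled FPKM in the shPTPRN3 libraries and 27.6 and 19.8 in the shNC libraries (log2 fold change -2.22, SE 0.34; limma, adjusted p = 0.0594 over all genes and 0.0270 in a fit without genes listed at 0), and the hairpin's 21-base target matched transcripts of no member. Depth, estimated from the deposited confidence intervals, was 11.8 to 29.5 M fragments, and log2 values of replicates correlated across genes with r = 0.936 within shPTPRN3 and 0.922 within shNC, against 0.847 to 0.924 between groups. Of the markers of a glial or mesenchymal glioma line, VIM (1124 to 2177 FPKM as deposited) and CD44 (87.7 to 103 FPKM) were high, NES stood between 0.917 and 3.91 FPKM, and S100B, SOX2 and OLIG2 stayed under 1 FPKM. GFAP, the defining astrocyte filament, was listed at 0 in every library, and CDKN2A, which is known to be deleted in U87, did not exceed 0.0579 FPKM. Markers of leukocytes, epithelium, endothelium and hepatocytes (PTPRC, EPCAM, PECAM1 and ALB) did not exceed 0.752 FPKM.

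Transcripts of the replication machinery had a median below that of all genes at every step. The median log2 fold change was -1.23 over the 46 members, against -0.01 over the 11394 genes tested, on the scale of log2(scaled FPKM + 1). All 46 members passed the filter of a mean of at least 1 FPKM, taken over all 4 libraries. Some passed only through their shNC values, with shPTPRN3 means under 1 scaled FPKM. These are RFC4 (0), POLE2 (0.325), MCM10 (0.478), CHTF18 (0.732), GINS1 (0.779), GINS2 (0.831), POLA1 (0.916), ORC1 (0.943) and DSCC1 (0.965). For 41 members the higher shPTPRN3 value was still under the lower shNC value, an order found in 23.1% of all genes tested; 0 members had the opposite order, against 21.5%. The log2 fold change was -1 or below for 30 members, against 6.31% of all genes tested. Origin licensing had the lowest median (-1.68 over 15 members), followed by helicase activation (-1.35 over 9), the clamp and its loader (-1.18 over 8), the polymerases (-1.05 over 9) and lagging-strand maturation with single-strand binding (-0.46 over 5). No test was made of the order of these steps. Adding 1 before the log shrinks the differences of low genes, so that the gaps between steps depend on this scale. As a share of the shNC mean, the middle member of licensing (MCM6, 25.1%) was close to that of helicase activation (GINS4, 26.2%).

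**Figure D1:**
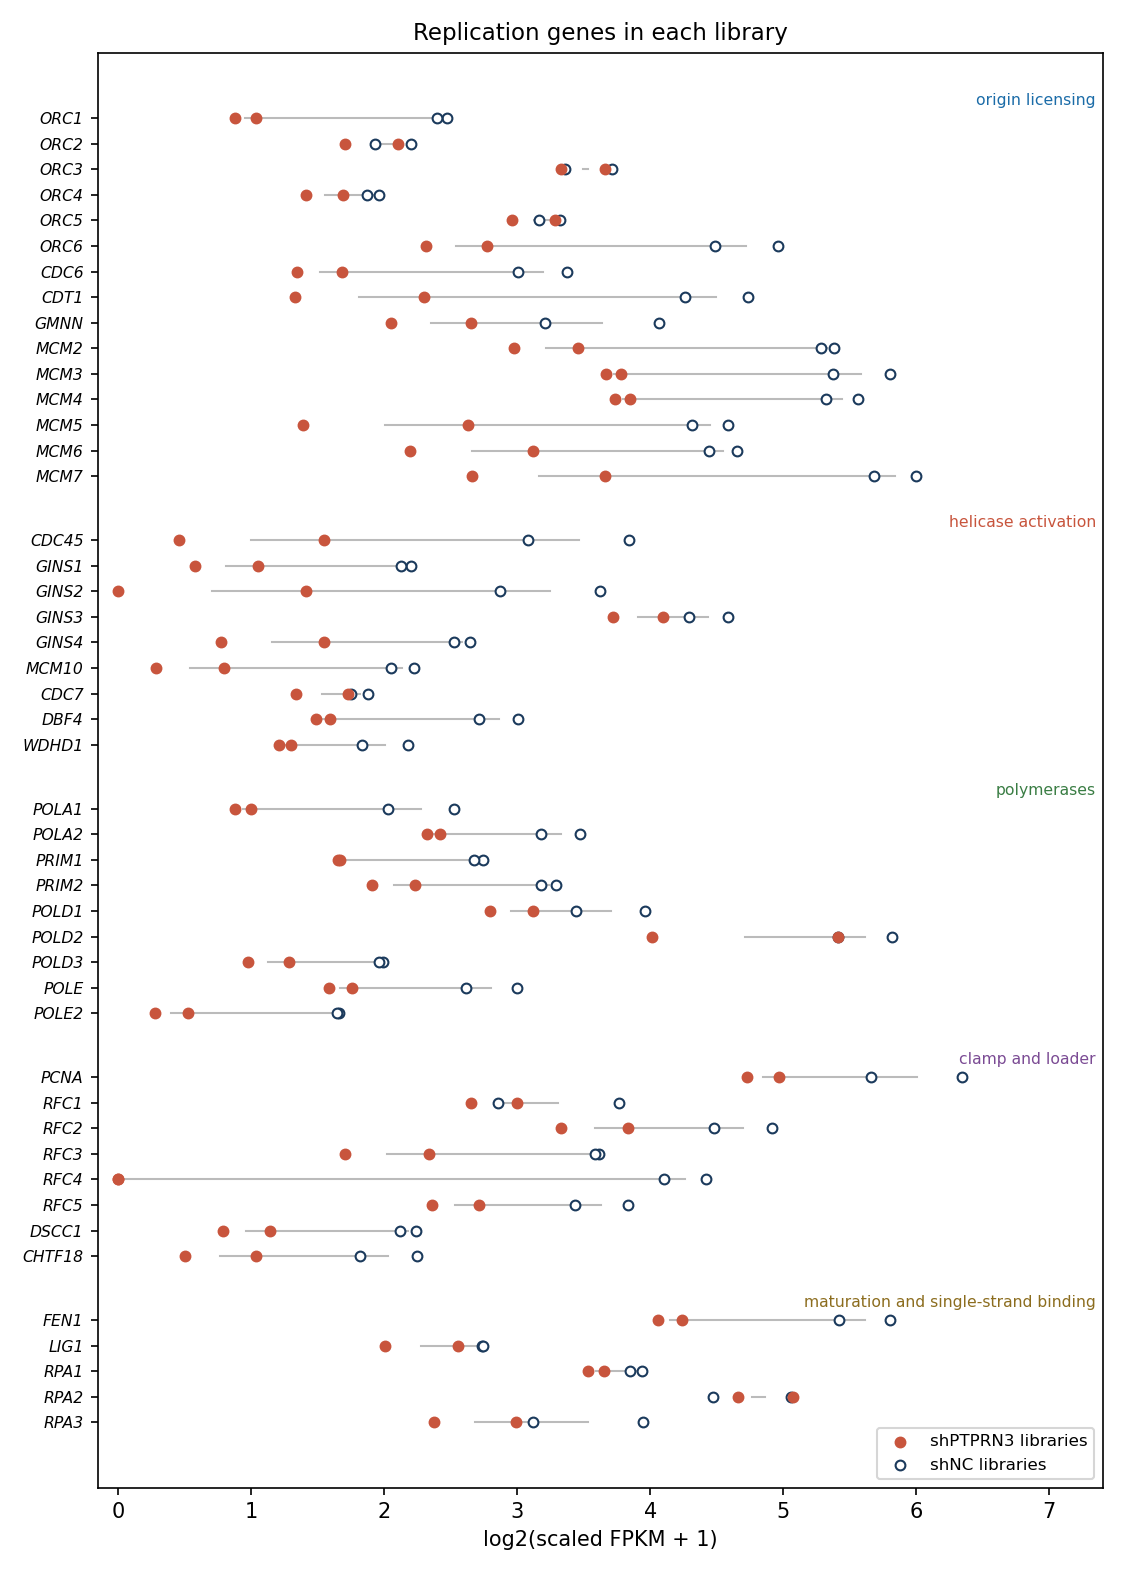
Log2(scaled FPKM + 1) of the 46 replication genes in each library, by step; filled points are the 2 shPTPRN3 libraries, open points the 2 shNC libraries, and each grey line joins the group means. The groups are apart for 41 genes, and RFC4 (both shPTPRN3 libraries) and GINS2 (1 shPTPRN3 library) are listed at 0.

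Gene by gene, limma called 1 member lower at an adjusted p under 0.05, RFC4, and 0 higher; over all genes 0.342% were called lower, 0.079% higher and 0.421% in either direction. At an unadjusted p under 0.05, 33 members were lower, against 7.79% of all genes tested, and 0 were higher, against 5.66%. RFC4 and GINS2 were listed at exactly 0 in shPTPRN3 libraries, and an exact 0 can be a failed estimate. A second fit, called the repeated fit, therefore dropped 267 genes with a 0 in at least 1 library and kept 44 members. In that repeated fit 13 members fell, against 1.59% of the 11127 genes, and none rose, against 0.377% (limma; 0 members were higher at an unadjusted p under 0.05). They are CDT1, CDC6, ORC1, ORC6, the 6 subunits MCM2 to MCM7, CDC45, MCM10 and POLE2, with adjusted p from 0.0270 to 0.0499. Of these, ORC1, MCM10 and POLE2 passed the filter only through their shNC values, and their p-values are given as description only. How many passed varied with the scaling and with the libraries included, as did the number called over all genes. The count was 0 on FPKM as deposited (31 at an unadjusted p under 0.05), 3 on values rescaled to a fixed sum per library (TPM), 8 with quantile normalization and 23 with length and GC trends removed. Over all genes, in either direction, the same settings called 0 (1547 at an unadjusted p under 0.05), 52, 132 and 560. Without shPTPRN3 replicate 2 it was 4, and these 4 (ORC6, CDT1, MCM7 and CDC45) were also called without each of the other libraries. It was 16 without shPTPRN3 replicate 1, 17 without shNC replicate 1 and 20 without shNC replicate 2. Below, "fell" refers to the repeated fit, and its SE and adjusted p are the ones printed unless stated otherwise.

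The confidence intervals deposited with each FPKM are taken here as a guide to counting error within a library. Both shPTPRN3 intervals lay wholly below both shNC intervals for 37 of 46 members, against 11.9% of the 10771 tested genes that have a single row. The exceptions were ORC2, ORC3, ORC5, CDC7, POLD2, RFC1, LIG1, RPA2 and RPA3. These intervals do not cover the spread between cultures, and they need not hold the FPKM itself. For FEN1, counted among the 37, the upper bound in shPTPRN3 replicate 1 was 16.4 at an FPKM of 16.5. In shNC replicate 1 its upper bound was 54.9 at an FPKM of 56.9.

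Both loading factors fell, against 1.59% of all genes in the repeated fit. All groups of these and of their inhibitor GMNN were apart, against 23.1% of all genes tested that were lower in this way. CDT1, which escorts MCM2-7 to ORC, had 3.93 and 1.51 scaled FPKM in the shPTPRN3 libraries and 25.6 and 18.1 in the shNC libraries. It fell by 2.68 on the log2 scale (SE 0.41, limma, adjusted p = 0.0270), level with MCM7 as the lowest of the licensing genes, and its mean was 12.4% of the shNC mean. CDC6, the ATPase that completes the loader on ORC, had 2.21 and 1.54 scaled FPKM in shPTPRN3, against 9.38 and 7.05 in shNC. It fell by 1.68 on the log2 scale (SE 0.34, limma, adjusted p = 0.0387). GMNN encodes geminin, which binds CDT1 and blocks relicensing in S and G2. GMNN stood at 5.28 and 3.15 scaled FPKM in shPTPRN3 and 15.7 and 8.24 in shNC, with the groups apart, but its log2 fold change of -1.28 missed the threshold (limma, adjusted p = 0.157). The ratio of CDT1 to GMNN, both per transcript length, was 0.744 and 0.479 in shPTPRN3, against 1.63 and 2.2 in shNC (exact permutation test of 2 against 2, two-sided p = 0.333, the smallest this design allows; 1 of 6 such ratios computed).

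Of the 6 ORC subunits 2 fell, against 1.59% of all genes in the repeated fit. The difference between these 2 and the other subunits was not tested. ORC1, the subunit that in human cells is degraded in S phase and rebuilt each cycle, had 1.05 and 0.837 scaled FPKM in shPTPRN3, against 4.55 and 4.28 in shNC, and fell by 1.48 on the log2 scale (SE 0.30, limma, adjusted p = 0.0388). ORC6, the smallest and most loosely bound subunit, had 5.82 and 3.97 scaled FPKM in shPTPRN3, against 30.1 and 21.4 in shNC. ORC6 fell by 2.18 on the log2 scale (SE 0.36, limma, adjusted p = 0.0270). The remaining subunits, ORC2 to ORC5, form the core of the complex. Their log2 fold changes lay between -0.36 (ORC4) and -0.04 (ORC3), with limma adjusted p of 0.655 to 0.979.

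ORC3 had 9.05 and 11.6 scaled FPKM in shPTPRN3 and 9.25 and 12.1 in shNC, with the groups interleaved. ORC5 had 6.81 and 8.75 in shPTPRN3 and 7.97 and 9.01 in shNC, and ORC2 had 2.27 and 3.31 in shPTPRN3 and 2.81 and 3.59 in shNC, both overlapping. For ORC4, at 1.67 and 2.22 scaled FPKM in shPTPRN3 and 2.66 and 2.89 in shNC, the groups were apart but the difference was small beside its error (SE 0.31). The ORC4 row overlaps those of ACVR2A and MBD5. MBD5 was listed at 4.53 and 4.26 FPKM in shPTPRN3 and 1.12 and 2.80 FPKM in shNC. For ORC2, ORC3 and ORC5 the SE was 0.33 to 0.35, so that a p above the threshold does not show equal levels. ORC3 was the most abundant subunit in both shPTPRN3 libraries, and ORC6 was so in both shNC libraries. The ratio of ORC6 to ORC3 was 0.643 and 0.341 in shPTPRN3, against 3.25 and 1.77 in shNC (exact permutation test, two-sided p = 0.333, the smallest possible). Log2 fold changes near 0 changed sign for ORC2, ORC3 and ORC5 when single libraries were left out, and for ORC3 and ORC5 also with the processing.

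**Figure D2:**
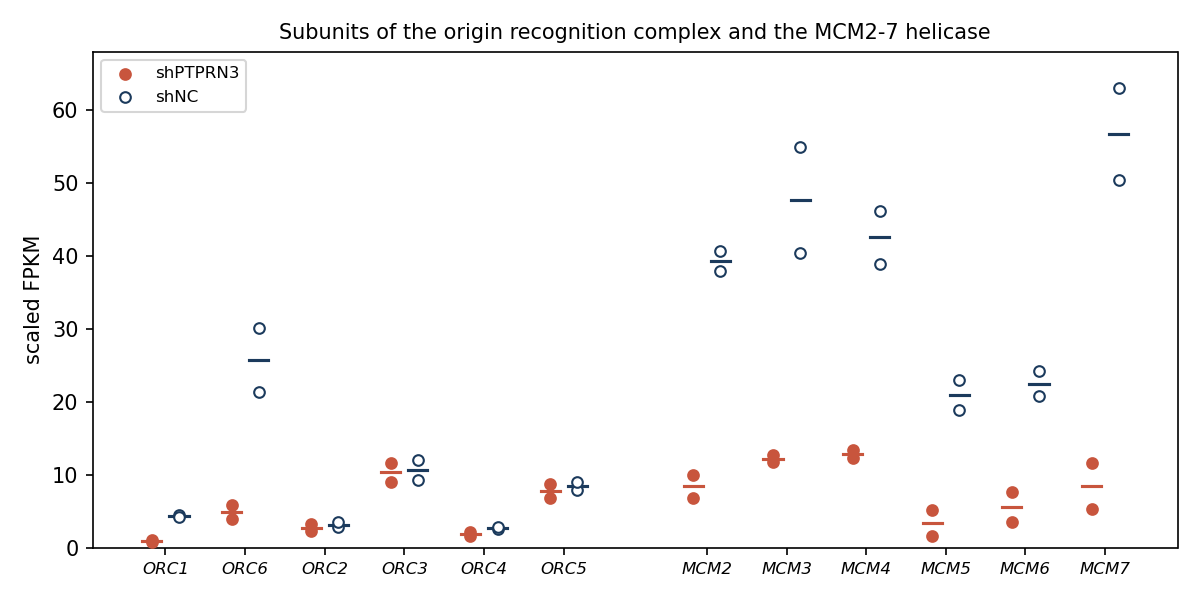
Scaled FPKM of the 6 ORC subunits (ORC1 and ORC6 first) and the 6 MCM2-7 subunits; filled points are shPTPRN3 libraries, open points shNC libraries and bars group means. ORC1, ORC6 and every MCM subunit lie lower in shPTPRN3, whereas both groups of ORC2, ORC3 and ORC5 overlap.

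The MCM2-7 hexamer is the motor of the replicative helicase. All 6 of its subunits fell, against 1.59% of all genes in the repeated fit. Their log2 fold changes ran from -2.68 (MCM7) to -1.65 (MCM4), with a median of -2.0. MCM7 had 11.6 and 5.33 scaled FPKM in shPTPRN3, against 63.0 and 50.4 in shNC (SE 0.41, limma, adjusted p = 0.0270). MCM7 also hosts the microRNA genes MIR25, MIR93 and MIR106B in an intron, and their rows were listed at 0 in every library. MCM5 had 5.18 and 1.62 scaled FPKM in shPTPRN3, against 23.0 and 18.9 in shNC (log2 fold change -2.44, SE 0.43, limma, adjusted p = 0.0270). MCM2 had 9.98 and 6.86 scaled FPKM in shPTPRN3, against 37.9 and 40.6 in shNC (log2 fold change -2.11, SE 0.35, limma, adjusted p = 0.0270). Every shPTPRN3 value of these genes was lower than every shNC value.

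MCM3 and MCM4 were the subunits whose shPTPRN3 libraries lay closest together. MCM3 had 12.8 and 11.7 scaled FPKM in shPTPRN3, against 54.9 and 40.4 in shNC, and fell by 1.86 on the log2 scale (limma, adjusted p = 0.0333). MCM4 had 12.3 and 13.4 in shPTPRN3, against 38.9 and 46.2 in shNC, and fell by 1.65 on the log2 scale (limma, adjusted p = 0.0426). MCM6 had 7.71 and 3.58 scaled FPKM in shPTPRN3, against 20.8 and 24.2 in shNC, and fell by 1.89 on the log2 scale (limma, adjusted p = 0.0421). In the fit over all genes, the adjusted p of the 6 subunits ran from 0.0611 to 0.0992. Although the subunits act in equal numbers, their transcript levels per length were unequal: the most abundant stood 2.47-fold and 8.26-fold above the least abundant in the shPTPRN3 libraries, and 3.03-fold and 2.66-fold in the shNC libraries. The ratio of shPTPRN3 replicate 2 was that of MCM4 to MCM5.

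Of the 9 helicase activation genes, groups were apart for 9, against 23.1% of all genes tested that were lower in this way. In the repeated fit 2 of 8 fell, against 1.59% of all genes. CDC45, the cofactor that joins MCM2-7 with GINS, had 1.92 and 0.375 scaled FPKM in shPTPRN3, against 13.4 and 7.47 in shNC. It fell by 2.46 on the log2 scale (SE 0.43, limma, adjusted p = 0.0270), and its mean was 11% of the shNC mean. MCM10, needed to switch the assembled helicase on, had 0.738 and 0.217 scaled FPKM in shPTPRN3, against 3.14 and 3.67 in shNC, and fell by 1.60 on the log2 scale (SE 0.31, limma, adjusted p = 0.0333). At such levels the pseudocount shrinks the log2 value, and the mean itself was 14.0% of that in shNC.

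The GINS tetramer was uneven. GINS1 had 1.07 and 0.490 scaled FPKM in shPTPRN3, against 3.61 and 3.37 in shNC (log2 fold change -1.35, limma, adjusted p = 0.0580). GINS4 had 1.92 and 0.706 in shPTPRN3, against 4.77 and 5.25 in shNC (log2 fold change -1.43, limma, adjusted p = 0.0733). Both had groups apart and missed the threshold, with adjusted p of 0.123 and 0.152 in the fit over all genes (limma). GINS3 was the most abundant subunit in all 4 libraries, at 12.2 and 16.1 scaled FPKM in shPTPRN3 and 18.6 and 23.0 in shNC. Its log2 fold change was -0.53 (SE 0.35, limma, adjusted p = 0.533). GINS2 had 1.66 scaled FPKM in shPTPRN3 replicate 1 and was listed at 0 in replicate 2, against 11.3 and 6.33 in shNC. Its row overlaps that of GSE1 by a few bases at one end, GSE1 was listed at 2.6 to 5.19 FPKM in the 4 libraries, and GINS2 was left out of the repeated fit. In the fit over all genes its log2 fold change was -2.54 (limma, adjusted p = 0.0943), a value that the pseudocount sets in part (-4.35 with a pseudocount of 0.1).

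The kinase that triggers helicase assembly consists of the catalytic subunit CDC7 and its cyclin-like activator DBF4. DBF4 had 1.81 and 2.02 scaled FPKM in shPTPRN3, against 5.56 and 7.05 in shNC (log2 fold change -1.32, limma, adjusted p = 0.0733). CDC7 had 1.53 and 2.31 scaled FPKM in shPTPRN3, against 2.36 and 2.68 in shNC (log2 fold change -0.28, limma, adjusted p = 0.748). The ratio of DBF4 to CDC7 was 1.19 and 0.877 in shPTPRN3, against 2.35 and 2.63 in shNC (exact permutation test, two-sided p = 0.333, the smallest possible). WDHD1, known as AND-1, tethers polymerase alpha to the helicase and had 1.46 and 1.31 scaled FPKM in shPTPRN3, against 2.55 and 3.53 in shNC (log2 fold change -0.75, limma, adjusted p = 0.286). All 3 genes had every shPTPRN3 value below every shNC value, and none passed the threshold.

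On the scale of log2(scaled FPKM + 1) the polymerase genes spanned the narrowest range of any step, -1.34 to -0.75. Their groups were apart for 9 of 9, against 23.1% of all genes tested that were lower in this way. The levels themselves were less uniform, because the pseudocount shrinks the change of low genes. The shPTPRN3 mean ran from 15.2% (POLE2) to 58.6% (POLD2) of the shNC mean. POLE2, the second subunit of the leading-strand polymerase epsilon, was the only polymerase gene that fell. It had 0.438 and 0.212 scaled FPKM in shPTPRN3, against 2.16 and 2.13 in shNC (log2 fold change -1.25, SE 0.27, limma, adjusted p = 0.0499). POLE, its catalytic subunit, had 2.0 and 2.37 in shPTPRN3, against 5.11 and 6.98 in shNC (log2 fold change -1.13, limma, adjusted p = 0.130). The POLE2 call was not stable: in the fit over all genes its adjusted p was 0.121 (limma). In the repeated fit POLE2 was not called on FPKM as deposited, on TPM or with quantile normalization. Its difference from the other polymerase genes was not tested.

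Polymerase alpha-primase starts every new strand, and its 4 subunits had log2 fold changes from -1.34 to -0.96 (limma, adjusted p from 0.0663 to 0.214). POLA1, the catalytic subunit, had 0.997 and 0.834 scaled FPKM in shPTPRN3, against 3.07 and 4.76 in shNC. PRIM1, the primase proper, had 2.14 and 2.17 in shPTPRN3, against 5.69 and 5.37 in shNC. PRIM2, the large primase subunit, had 3.69 and 2.76 in shPTPRN3, against 8.82 and 8.05 in shNC, and POLA2, the accessory subunit, had 4.0 and 4.35 in shPTPRN3, against 10.1 and 8.06 in shNC. POLA1 was the least abundant of the 4 in every library.

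Polymerase delta, which synthesises the lagging strand, showed smaller differences, with limma adjusted p from 0.218 to 0.418. POLD1, the catalytic subunit, had 7.67 and 5.93 scaled FPKM in shPTPRN3, against 14.6 and 9.88 in shNC. POLD3, an accessory subunit, had 1.43 and 0.965 in shPTPRN3, against 2.97 and 2.89 in shNC. POLD2 rested on 1 library: it had 41.6 and 15.1 scaled FPKM in shPTPRN3, against 55.3 and 41.7 in shNC, so that its log2 fold change of -0.90 became -0.18 without shPTPRN3 replicate 2 and -1.61 without replicate 1.

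**Figure D3:**
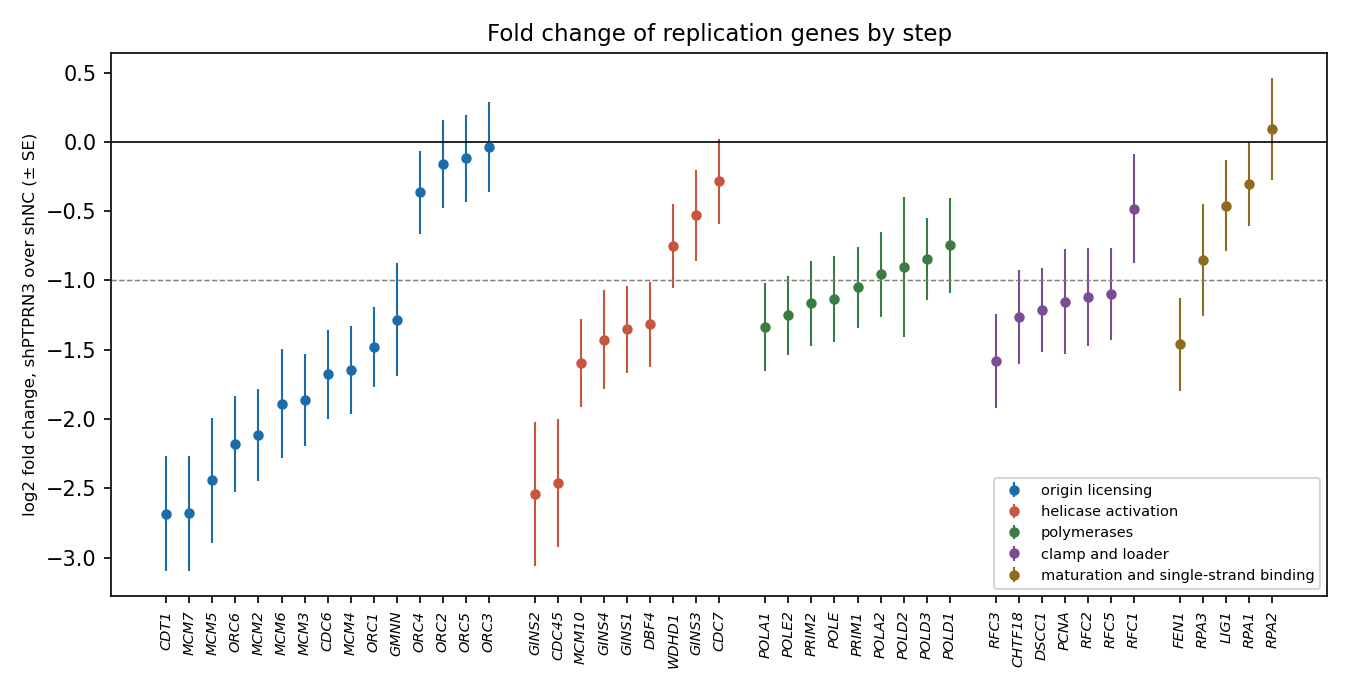
Log2 fold change of shPTPRN3 over shNC with its standard error (limma, fit over all genes) for 45 replication genes, ordered within each step; RFC4 is left out because both its shPTPRN3 values are listed at 0. The solid line marks 0 and the dashed line -1, below which 29 of the genes drawn lie.

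Of the clamp and loader genes, groups were apart for 7 of 8, against 23.1% of all genes tested that were lower in this way. In the repeated fit 0 of 7 passed, against 1.59% of all genes called lower. At an unadjusted p under 0.05 in the fit over all genes, 7 of the 8 were lower, against 7.79%. PCNA, the ring that holds polymerases on DNA, had 30.4 and 25.5 scaled FPKM in shPTPRN3, against 80.4 and 49.6 in shNC (log2 fold change -1.15, SE 0.39, limma, adjusted p = 0.195). The antisense gene PCNA-AS1 overlaps it and was listed at 34.2 FPKM in shPTPRN3 replicate 1 and at 0 in the other 3 libraries. Since the strand setting of the quantification is not given in the sources used here, reads of the pair cannot be told apart with certainty. RFC3 had 4.05 and 2.26 scaled FPKM in shPTPRN3, against 11.2 and 11 in shNC (log2 fold change -1.58, limma, adjusted p = 0.0570).

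RFC2 and RFC5, which with RFC3 and RFC4 form the small-subunit core shared by all clamp loaders, had log2 fold changes of -1.12 and -1.10. RFC2 stood at 13.3 and 9.03 scaled FPKM in shPTPRN3 and 29.2 and 21.3 in shNC, and RFC5 at 5.56 and 4.13 in shPTPRN3 and 13.2 and 9.84 in shNC. RFC1, the large subunit that makes the loader specific for PCNA, overlapped between groups, with 5.30 and 6.99 scaled FPKM in shPTPRN3 and 6.23 and 12.6 in shNC (log2 fold change -0.48, limma, adjusted p = 0.640). The alternative loader genes DSCC1 and CHTF18, used in sister chromatid cohesion, had log2 fold changes of -1.21 and -1.26 (limma, adjusted p = 0.0783 and 0.0858). DSCC1 stood at 1.2 and 0.726 scaled FPKM in shPTPRN3 and 3.72 and 3.35 in shNC, and CHTF18 at 1.05 and 0.414 in shPTPRN3 and 3.74 and 2.53 in shNC.

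RFC4 was the member called over all 11394 genes (limma, adjusted p = 0.00454), and its call rests on values of exactly 0. It was listed at 0 in both shPTPRN3 libraries, with upper interval bounds of 0.0597 and 0.153 FPKM, against 20.4 and 16.2 scaled FPKM in shNC. Its row (chromosome 3, 186789893 to 186806695, hg38) overlaps by a few bases that of EIF4A2 (186783577 to 186789896), a translation factor gene listed at 70.0 and 69.3 FPKM in shPTPRN3 and 78.0 and 71.4 FPKM in shNC. Whether RFC4 was silent or not estimated was not tested. Without RFC4 the median of the clamp and loader genes was -1.15 over 7, and without RFC4 and GINS2 that of all members was -1.19 over 44.

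Genes that finish lagging-strand fragments and coat single strands differed least. FEN1, the flap endonuclease, was the exception, with 15.7 and 17.9 scaled FPKM in shPTPRN3, against 54.8 and 41.9 in shNC (log2 fold change -1.46, SE 0.36, limma, adjusted p = 0.0733). LIG1, the ligase that seals the nicks, had 4.87 and 3.02 in shPTPRN3, against 5.67 and 5.68 in shNC (log2 fold change -0.46, limma, adjusted p = 0.598). FEN1 and LIG1 act one after the other, and the difference between them was not tested.

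RPA, the trimer that protects single-stranded DNA in replication and repair, had no member past the threshold. RPA1 stood at 11.5 and 10.6 scaled FPKM in shPTPRN3 and 13.4 and 14.4 in shNC (log2 fold change -0.30, limma, adjusted p = 0.750). RPA2 stood at 24.2 and 32.6 in shPTPRN3 and 32.4 and 21.2 in shNC, overlapping. Its log2 fold change was 0.10 (limma, adjusted p = 0.950), the only one above 0 among the members in this fit. Its direction was not stable: it was -0.20 without shNC replicate 2 and -0.10 without shPTPRN3 replicate 2. RPA3 stood at 6.94 and 4.18 in shPTPRN3 and 14.4 and 7.70 in shNC (log2 fold change -0.85, limma, adjusted p = 0.366), and its row overlaps that of UMAD1, listed at 8.39 and 7.68 FPKM in shPTPRN3 and 4.64 and 6.39 FPKM in shNC.

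The 2 libraries of each group varied around these means. Within the libraries numbered 1 the median difference over the 46 members was -1.12 on the log2 scale, and within those numbered 2 it was -1.29. The difference was below 0 in both for 45 members, and -1 or below in both for 28, against 4.03% of all genes tested. In shPTPRN3 replicate 2, 12 members stood under 1 scaled FPKM, against 4 in shPTPRN3 replicate 1 and 0 in either shNC library. The median over members was 4.03 and 2.89 scaled FPKM in shPTPRN3 and 10.7 and 8.15 in shNC.

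**Figure D4:**
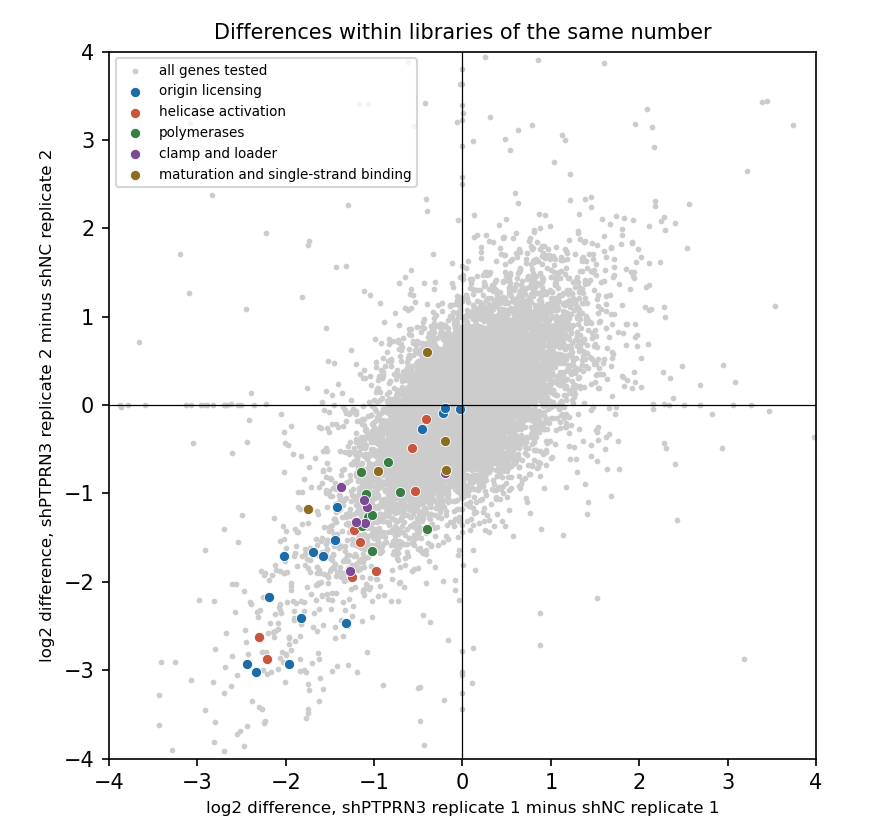
Difference in log2(scaled FPKM + 1) between shPTPRN3 and shNC within the libraries numbered 1 (horizontal) and numbered 2 (vertical); grey points are all genes tested and coloured points replication genes by step, without RFC4. The axes run from -4 to 4 and leave 41 genes undrawn; RPA2 is the one replication gene whose sign differs between the numbers.

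The promoter letters printed above can be read against these values. Members with at least 1 E2F motif match had a median log2 fold change of -1.35 over 17, and those without one -1.11 over 22. By step, these medians were -1.89 and -0.82 in origin licensing and -1.35 and -1.32 in helicase activation. They were -1.19 and -0.98 for the polymerases and -1.37 and -1.12 for the clamp and loader. For maturation and single-strand binding the order was the opposite, -0.46 (1 window) and -0.88 (2 windows). These differences were not tested. Matches were present in 13 of 26 members with a log2 fold change of -1 or below and in 4 of 13 members above -1. In origin licensing 7 of 13 windows held a match. MCM7, MCM2 and CDC6 hold matches and fell, CDC45 and ORC6 fell with no match to these letters, and ORC3 holds a match 12 bases before its start with values that overlap between groups. The windows of CDC45 and MCM10 hold tttggcgg, which differs from TTTGGCGC only in its last letter and was not counted. Over all genes tested that had a window, the medians were -0.15 with a match (516 genes) and -0.0004 without (8447 genes).

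A wider list of 40 further genes of replication and its regulation, of which 38 were tested, had a median log2 fold change of -0.90. Over all genes tested limma called 1 of the 38 lower, against 0.342% of all genes, and 0 higher, against 0.079%. At an unadjusted p under 0.05, 21 were lower, against 7.79%, and 0 higher, against 5.66%. In the repeated fit 10 of 37 were lower, against 1.59%, and 0 higher, against 0.377%. This list too was chosen with earlier results of these data known. UHRF1, which brings the maintenance DNA methyltransferase to new DNA, had 2.74 and 1.16 scaled FPKM in shPTPRN3, against 21.9 and 18.5 in shNC (log2 fold change -2.90, limma over all genes, adjusted p = 0.0361). That call was lost without shNC replicate 1 or 2 (limma, adjusted p = 0.131 and 0.193), on FPKM as deposited (0.0661) or TPM (0.0581), with a pseudocount of 0.1 (0.0841), without a filter (0.206), among genes averaging 5 FPKM or more (0.0694) and with eBayes lacking a trend (0.0517). ASF1B, a histone chaperone, had 7.53 and 2.80 in shPTPRN3, against 40.0 and 25.3 in shNC, and fell in the repeated fit (limma, adjusted p = 0.0270).

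TOP2A, the topoisomerase that untangles replicated chromosomes, and PCLAF, a PCNA-binding protein, also fell in the repeated fit, with log2 fold changes of -2.48 and -2.34 (limma, adjusted p = 0.0270 and 0.0333). TOP2A stood at 4.0 and 1.40 scaled FPKM in shPTPRN3 and 14.4 and 23.4 in shNC, and PCLAF at 3.22 and 0.849 in shPTPRN3 and 17.3 and 9.87 in shNC. The other 6 genes of the list that fell in the repeated fit were DBF4B, CLSPN, CHAF1A, CHAF1B, DTL and RNASEH2A, with log2 fold changes from -2.14 (RNASEH2A) to -1.64 (CHAF1B) and limma adjusted p from 0.0270 to 0.0469. These 6 were singled out after their values were seen. The smallest absolute log2 fold changes were those of RNASEH2C (-0.10), a subunit of the nuclease that removes ribonucleotides, LRWD1 (0.15), which binds ORC, POLD4 (0.24), the smallest subunit of polymerase delta, and MCMBP (-0.29), which binds MCM proteins. None of these 4 passed the threshold (limma, adjusted p from 0.764 to 0.951). The groups overlapped for RNASEH2C, LRWD1 and POLD4, and the log2 fold changes of these 3 changed sign when single libraries were left out. Only 4 of the 38 had a log2 fold change above 0: LRWD1, POLD4, ASF1A and CHTF8. ASF1A, a histone chaperone and paralog of ASF1B, had 12.8 and 16.1 scaled FPKM in shPTPRN3, against 11.06 and 10.52 in shNC, so that its groups were apart in the higher direction (log2 fold change 0.38, limma, adjusted p = 0.675). CHTF8, a subunit of the alternative clamp loader, had 24.6 and 17.7 in shPTPRN3 and 10.7 and 17.7 in shNC, overlapping (log2 fold change 0.56, limma, adjusted p = 0.545). CCNE2, an S-phase cyclin listed at 0 in both shPTPRN3 libraries and at 1.47 and 1.75 scaled FPKM in shNC, and ATAD5 did not pass the filter on low values.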

How the data were processed

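Libraries of U87 mRNA (2 shPTPRN3, 2 shNC) were made with a strand-marking kit, per the labels. The submitters' processing notes list Cufflinks 2.2.1.2, STAR 2.6.0b-1, FastQC 0.72 and the build hg38. For annotation and strand setting the entry is "not given in the sources used here". FPKM was deposited by the authors for 33646 rows a library, each with an interval and a status flag, per the file headers. Fragment counts were not used here. Depth is a rough estimate from the intervals of single-exon genes, and intervals are taken as a guide to counting error, not to spread between cultures.

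Rows flagged as not OK in at least 1 library (651, none of them a member) were dropped, and FPKM was summed per gene name. Scaling used median ratios over 9988 genes (factors 1.05 and 0.943 for shPTPRN3, 1.04 and 0.974 for shNC). Genes averaging 1 FPKM or more were kept, and the log2 of scaled FPKM plus a pseudocount of 1 was compared with limma 3.58.1 (R 4.3.3; eBayes with a trend, two-sided, Benjamini-Hochberg over all genes, threshold 0.05). The pseudocount understates the change of low genes. The procedure was tested on simulated data. All members are named. For the wider list the rule was to name those called over all genes tested and the 4 largest and 4 smallest absolute fold changes. Other genes of that list named above fall outside this rule and were named with their values seen. Members and lists were chosen with earlier results of these data known. Transcript matches used GENCODE 29 and promoters RefSeq. Python 3.11.15 with pandas 2.3.3, numpy 2.4.6, scipy 1.17.1 and matplotlib 3.10.9 did the rest. Alternatives covered scaling, pseudocount, filters, row status, eBayes settings, genes listed at 0, the replicate number as a block and single libraries; length and GC trends, and combinations with leaving out genes listed at 0, were added after seeing the data.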

Additional observations from a re-analysis of the deposited data

How the results depend on the processing

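The direction held in every setting for the members' median, which ran from -1.48 with a pseudocount of 0.1 to -1.03 without shPTPRN3 replicate 2; without 1 library at a time it was -1.37 to -1.03. The number of calls did not hold, and the cause was not tested. Of all genes 48 were called, against 31 unscaled, 30 on TPM (20 lower and 10 higher, against 39 lower and 9 higher), 23 at the pseudocount of 0.1, 26 when eBayes had no trend, 160 with robust eBayes and 8 among genes averaging 5 FPKM or more. Without a filter limma called 0 (2163 at an unadjusted p under 0.05). Removing length and GC trends gave 275, and leaving out 1 library 58 to 199. Of the members 1 was called, against 8 with robust eBayes, 12 after removing length and GC trends, 1 to 9 without 1 library, and 0 without a filter (32 at an unadjusted p under 0.05).

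Leaving out genes listed at 0 gave 219 calls, 13 of them members. Combined with that, unscaled FPKM gave 0 (1547 at an unadjusted p under 0.05) and 0 members (31), TPM 52 and 3 members, quantile normalization 132 and 8, and removal of length and GC trends 560 and 23. Without shPTPRN3 replicate 1 there were 413 calls and 16 members, without shPTPRN3 replicate 2 99 and 4, without shNC replicate 1 394 and 17, and without shNC replicate 2 610 and 20. Of the 13 members, 12 were also called without shPTPRN3 replicate 1, 12 without shNC replicate 1 and 12 without shNC replicate 2.

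The labels do not say that replicate numbers pair the libraries, and with 2 pairs this cannot be settled; deviations of same-numbered libraries correlated at 0.519 across genes. The fit with the replicate block called 2168 genes and 35 members, and 2453 genes and 34 members without genes listed at 0; it leaves 1 residual degree of freedom. Among those 34 were members that missed the threshold without the block, such as GMNN, PCNA, FEN1, DBF4, GINS1 and RFC3.

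Values near 0 changed sign, with genes listed at 0 kept or left out. Over the fits without 1 library ORC2 ran from -0.35 (without shPTPRN3 replicate 2) to 0.040 (without shPTPRN3 replicate 1), and ORC5 from -0.27 to 0.040 without the same libraries. ORC3 ran from -0.21 without shNC replicate 1 to 0.13 without shNC replicate 2, and was 0.12 without shPTPRN3 replicate 1. On TPM ORC3 was 0.046. Removing length and GC trends put ORC3 at 0.074 (0.073 without genes listed at 0) and ORC5 at 0.021 (0.017). RPA2 ran from -0.20 without shNC replicate 2 to 0.39 without shNC replicate 1, and was -0.10 without shPTPRN3 replicate 2. In the wider list, the fits without shNC replicate 2 and without shNC replicate 1 gave -0.54 and 1.02 for POLD4, -0.10 and 0.40 for LRWD1, and -0.53 and 0.33 for RNASEH2C. POLD4 was -0.26 without shPTPRN3 replicate 1, and RNASEH2C 0.0020 without shPTPRN3 replicate 2. Under 1 scaled FPKM stood 12 members in shPTPRN3 replicate 2 and 0 in shNC replicate 2, at similar estimated depths (12.3 and 11.8 M fragments); the part of depth in low values was not tested. Where leaving out a library left a group with 1, that library was assumed to vary like the other group.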

Other observations

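Ratios of transcript levels within 3 complexes are given here as values only. The ratio of ORC1 to ORC5 was 0.154 and 0.0957 in shPTPRN3, against 0.571 and 0.475 in shNC. The ratio of GINS1 to GINS3 was 0.0878 and 0.0305 in shPTPRN3, against 0.194 and 0.147 in shNC, and that of RPA3 to RPA2 was 0.287 and 0.128 in shPTPRN3, against 0.444 and 0.363 in shNC. The exact two-sided permutation test gave p = 0.333 before and after adjustment over 6 ratios, the smallest that 2 libraries against 2 can give. The pairs were chosen with the values known and the test could not pass the threshold, so that no difference in balance is shown by them.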
